A study of Mus musculus with 12 samples.

Results

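The 40 genes described here encode the proteins that dock, prime and fuse synaptic vesicles. They were chosen by symbol as synaptotagmins, SNAREs, active zone and vesicle proteins, and all 40 were found among the 21887 protein-coding genes of the RefSeq GRCm38.p6 gene table on chromosomes 1 to 19, X and Y. The members comprised 10 synaptotagmins, 7 SNAREs, complexins and tomosyn, 3 genes for NSF and its SNAP adaptors, 3 Rab3 genes, 12 active zone genes, and 5 SV2 and synapsin genes. They lay on 16 chromosomes.

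The study mapped lysine crotonylation in the mouse dorsal hippocampus by chromatin immunoprecipitation with an antibody against crotonylated lysine on any protein (pan-Kcr). Wild-type C57BL/6J mice had either been trained in spatial object recognition, a hippocampus-dependent memory task ("learning"), or stayed in their cages ("homecage"). Each condition was represented by 1 immunoprecipitated library and its deposited list of broad peaks, with no replicate, so no difference between the lists could be tested against biological spread. The 12 samples of the series also included 2 input libraries and 8 single-nucleus libraries on crotonate or saline, which were not analysed here. The mice's age and sex, and whether tissue was pooled, are not given in the labels of these libraries.

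At a presynaptic terminal, vesicles are held at the active zone by scaffolds such as Bassoon, Piccolo, ELKS, RIM and liprin-alpha. Munc13 proteins prime them, the SNAREs syntaxin-1, SNAP-25 and synaptobrevin pull the membranes together, complexin clamps the assembled complex, and calcium binding to synaptotagmin triggers fusion. NSF and its SNAP adaptors then take spent SNARE complexes apart. Lysine crotonylation is an acyl mark on histones and other proteins that is known chiefly from active promoters and enhancers.

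Promoter windows, from 250 bases before to 50 bases after an annotated start, were taken from RefSeq (GRCm38.p6) for 32 of the 40 members. A learning peak covered part of any listed window of the gene in 3 members, Cplx2, Stxbp5 and Unc13c, against 5.61% of the 17492 protein-coding genes, counted in the same way. A homecage peak did so in 6 members, Cplx2, Erc1, Rab3c, Rims1, Stxbp5 and Sv2a, against 21.3% of genes. The 3 windows with a learning peak are printed because they are the member promoters that carried the mark in the trained library. That of Erc1 is printed because a homecage peak covered it, with a learning peak outside it on either side. Each runs 5′ to 3′ along its own gene, on the strand given, with bases inside the named peak in capitals.
Cplx2 (complexin 2), chr13:54302306-54302605, plus strand, learning peak: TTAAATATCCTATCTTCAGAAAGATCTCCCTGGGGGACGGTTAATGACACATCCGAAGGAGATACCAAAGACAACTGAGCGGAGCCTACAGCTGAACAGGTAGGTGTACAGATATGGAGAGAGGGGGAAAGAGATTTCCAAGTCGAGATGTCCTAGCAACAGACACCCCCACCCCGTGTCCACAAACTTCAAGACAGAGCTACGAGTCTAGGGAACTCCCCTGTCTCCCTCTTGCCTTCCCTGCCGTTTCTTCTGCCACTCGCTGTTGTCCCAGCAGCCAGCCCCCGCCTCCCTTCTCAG
Stxbp5 (tomosyn), chr10:9900991-9901290, minus strand, learning peak: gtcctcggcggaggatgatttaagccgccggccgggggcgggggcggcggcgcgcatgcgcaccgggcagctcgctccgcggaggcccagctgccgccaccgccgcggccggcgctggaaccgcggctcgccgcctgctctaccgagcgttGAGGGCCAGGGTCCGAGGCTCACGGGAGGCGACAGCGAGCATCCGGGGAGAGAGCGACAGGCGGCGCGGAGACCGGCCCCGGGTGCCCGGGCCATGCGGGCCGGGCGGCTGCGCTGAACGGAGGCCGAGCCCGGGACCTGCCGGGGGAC
Unc13c (Munc13-3), chr9:73968988-73969287, minus strand, learning peak: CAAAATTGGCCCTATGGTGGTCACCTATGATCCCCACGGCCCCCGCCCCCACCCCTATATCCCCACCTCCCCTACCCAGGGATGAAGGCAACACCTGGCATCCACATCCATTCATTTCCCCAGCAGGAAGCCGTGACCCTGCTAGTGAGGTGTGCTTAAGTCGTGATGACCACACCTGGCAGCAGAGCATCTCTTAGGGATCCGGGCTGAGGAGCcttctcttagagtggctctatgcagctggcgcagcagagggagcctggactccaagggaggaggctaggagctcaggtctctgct
Erc1 (ELKS1), chr6:119848101-119848400, minus strand, homecage peak: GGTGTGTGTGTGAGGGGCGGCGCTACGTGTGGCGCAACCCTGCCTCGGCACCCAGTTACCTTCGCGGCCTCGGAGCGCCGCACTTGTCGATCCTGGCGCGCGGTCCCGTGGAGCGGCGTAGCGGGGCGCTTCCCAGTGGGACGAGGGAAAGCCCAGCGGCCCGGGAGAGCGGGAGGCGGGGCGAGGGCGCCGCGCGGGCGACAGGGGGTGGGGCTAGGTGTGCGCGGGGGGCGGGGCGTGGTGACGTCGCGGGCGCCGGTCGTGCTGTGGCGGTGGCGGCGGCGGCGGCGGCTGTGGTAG
The Cplx2 window lay whole inside a learning peak of 1161 bp. In Stxbp5 the learning peak took in the last 149 bases of the window. In Unc13c the peak took in the first 215 bases of a window whose start lies 39118 bp inside the gene's outer 5′ end, so it covers sequence at a start within the gene. The Erc1 window lay whole inside a homecage peak of 398 bp, with no learning peak in it.

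Release genes carried a learning peak more often than the average gene, but little more often than genes of their length. A peak in the gene or within 1 kb of its ends was present in 23 of 40 members in the learning list (57.5%, exact Clopper-Pearson 95% interval 40.9 to 73.0%), against 26.9% of all protein-coding genes. The members were long, with a median of 88.2 kb (3.85 to 856 kb) against 17.2 kb for all genes, and 34 of the 40 exceeded that median. Among the 200 protein-coding genes nearest to each member in length, 49.2% held a learning peak. The excess over genes of like length was 8.26 percentage points, with an interval of -8.35 to 23.7 points that spans 0. These intervals cover counting error over genes only.

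Homecage peaks were present in all 40 members (100%, interval 91.2 to 100%), against 81.7% of all genes and 94.0% of genes of like length. That difference of 5.95 points has an interval of -2.86 to 5.95, which spans 0. With 16002 learning and 331236 homecage peaks genome-wide, the lists differed 20.7 times in length, so presence cannot be compared between conditions. Within the members the lists held 49 and 974 peaks, a ratio of 19.9 against 16.8 over all protein-coding genes. This ratio varied with gene length. Up to 50 kb it was 7.71 in members, from 7 learning and 54 homecage peaks, against 11.1 in all genes. From 50 to 200 kb it was 20.1 against 17.2, and over 200 kb 22.7 against 24.5. Genes of the members' lengths would together have held 42.7 learning and 914 homecage peaks at their mean numbers. Learning peaks numbered 0.699 per 100 kb of member sequence, against 0.853 per 100 kb over all genes. Over all genes this density fell with gene length, so the pooled values are not matched for length. Up to 50 kb it was 2.01 in members, which held 7 learning peaks with 3 of them in Napa, against 1.41 in all genes. From 50 to 200 kb it was 0.744 against 0.802, and over 200 kb 0.590 against 0.527. Homecage peaks numbered 13.9 per 100 kb, against 13.7. The peaks covered 0.223% of member bases in the learning list (0.305% over all genes) and 5.52% in the homecage list (5.58%). In the same length classes, shortest first, learning coverage was 0.534% in members against 0.507%, 0.296% against 0.293%, and 0.175% against 0.180%.

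The share of genes with a learning peak rose with length in the members as in all genes. Of members up to 50 kb, 5 of 15 (33.3%) had one, against 19.3% of all genes in that class. Of those from 50 to 200 kb it was 9 of 14 (64.3%, against 47.4%), and of those over 200 kb 9 of 11 (81.8%, against 76.6%). The interval of each class included the all-gene share. The scatter of homecage peaks against gene length shows the members inside the band of all genes.

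**Figure D1:**
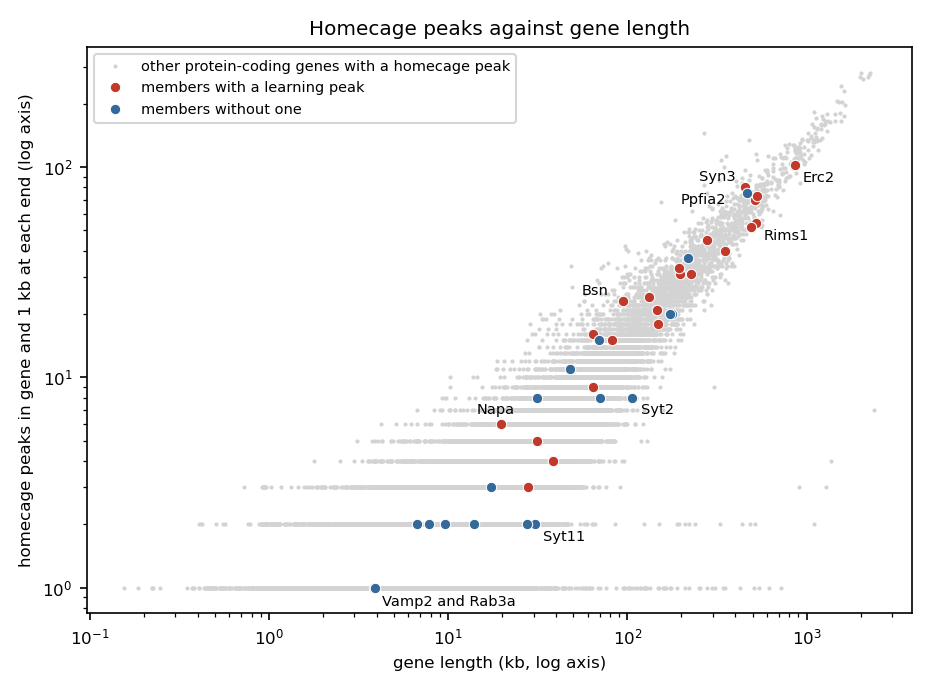
Each point is a gene, placed by length in kb (x, log axis) and by number of homecage peaks in the gene and 1 kb at each end (y, log axis); red members had a learning peak, blue members did not, and grey points are other protein-coding genes with a homecage peak. The 40 members run from 1 peak in Vamp2 and Rab3a to 102 in Erc2 and follow the grey band.

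Synaptotagmins are the calcium sensors of release and of related fusion steps. A learning peak was found in 2 of 10 (20%, interval 2.52 to 55.6%), Syt1 and Syt7, against 39.2% of genes of like length. Syt1, the fast sensor of hippocampal synapses, spans 513 kb of chromosome 10 and had 6 learning peaks, the most of any member. Genes of its length had a median of 2 (quartiles 1 to 4). Those 6 peaks were 146 to 479 bp wide, none overlapped a homecage peak, and all lay inside the gene. Its 70 homecage peaks were close to the median of 65 for genes of its length. Syt7, a slow, high-affinity sensor on chromosome 19 (64.4 kb), had 2 learning peaks and 16 homecage peaks, against a median of 9 (quartiles 7 to 11). Its 528 bp learning peak at 10389632-10390159 lay within a homecage peak of 1090 bp close to the low-coordinate end of the gene.

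The other 8 synaptotagmins had no learning peak. Syt2, another fast sensor, had 8 homecage peaks in 107 kb, against a median of 15 (quartiles 12 to 18). Syt11, which lacks calcium binding, had 2 in 30.5 kb, or 6.16 per 100 kb, the lowest density of any member. Syt12, of almost the same length at 31.2 kb, had 8, or 24.1 per 100 kb. Syt9, a fast sensor in part of the forebrain, had 20 in 178 kb, just under the quartiles of 20.8 to 28.2. Syt3, Syt4, Syt5 and Syt6 had 3, 2, 2 and 8 homecage peaks. The 10 genes together held 139 homecage peaks, equal to the 139 of genes of their lengths.

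**Figure D2:**
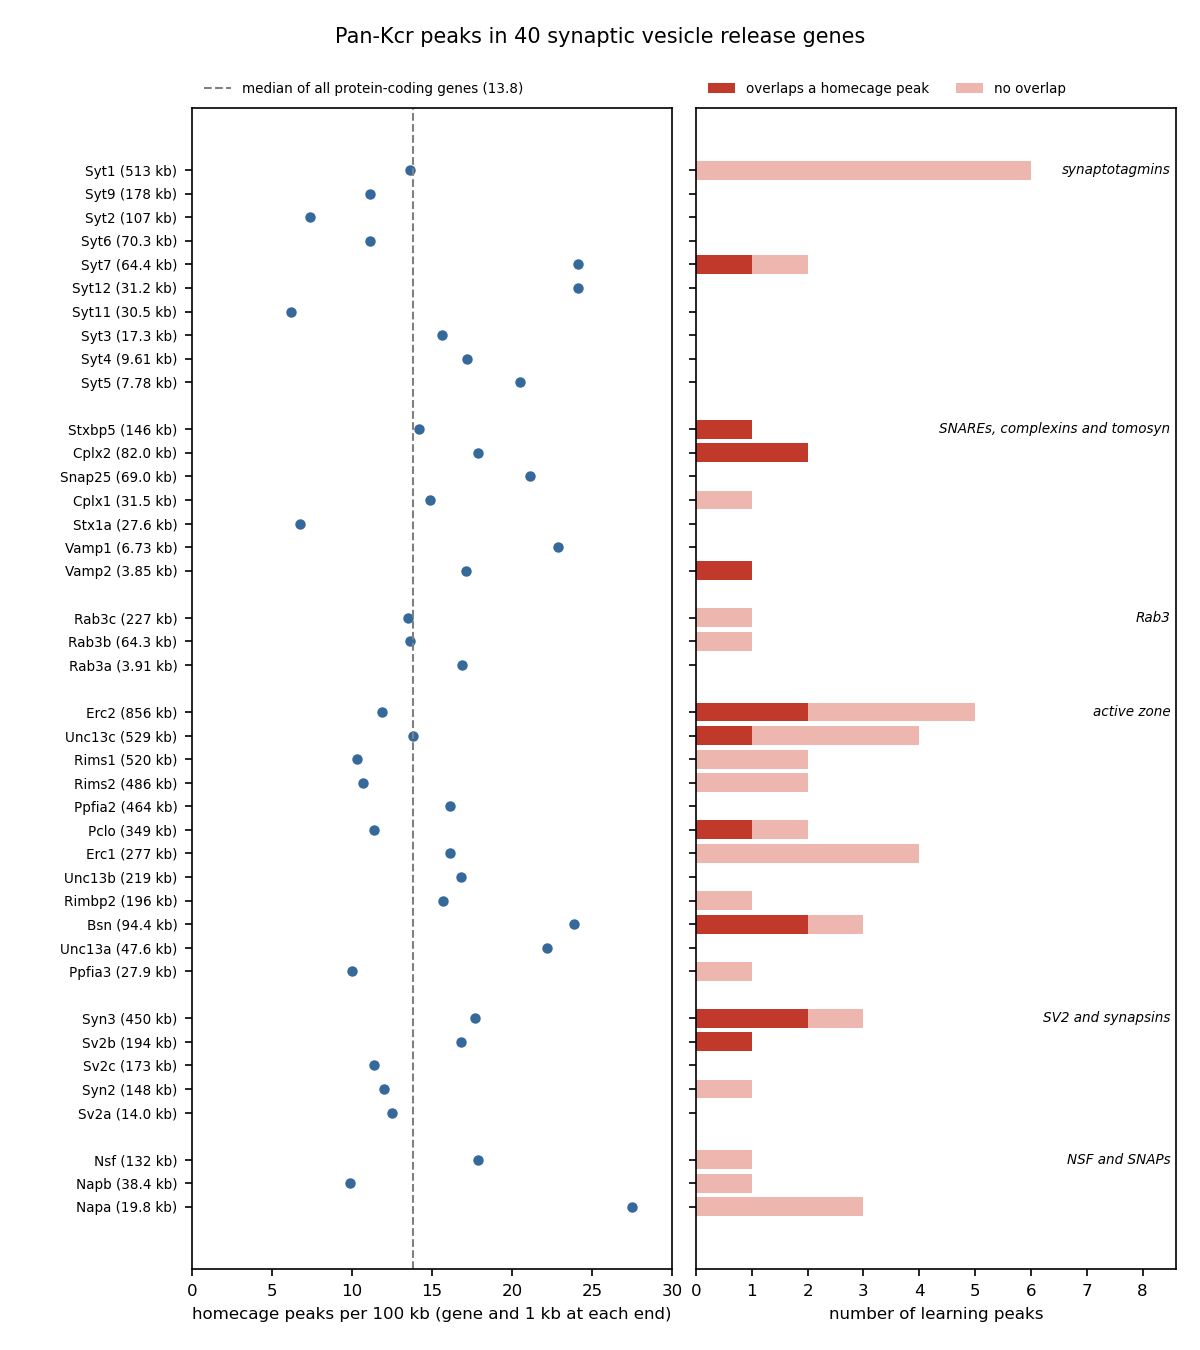
The 40 members in role groups, longest first, with homecage peaks per 100 kb (left; dashed line, all-gene median 13.8) and number of learning peaks (right; dark, overlapping a homecage peak; light, not). Homecage density ranged from 6.16 in Syt11 to 27.5 in Napa, and learning peaks from 0 in 17 members to 6 in Syt1.

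SNAREs, complexins and tomosyn, the fusion machine and its regulators, had a learning peak in 4 of 7 genes (57.1%, interval 18.4 to 90.1%), against 34.6% of genes of like length. Cplx2 had the widest learning peak of all members, 1161 bp at 54302166-54303326, and a second of 429 bp inside the gene. Both overlapped homecage peaks, of 1089 and 192 bp. Stxbp5, whose product tomosyn binds syntaxin and inhibits priming, had 1 learning peak of 816 bp at 9900324-9901139. A homecage peak of 1162 bp overlapped it and ran across the gene's start. Vamp2, the main synaptobrevin of the forebrain, is the shortest member at 3.85 kb. Its only learning peak, 337 bp on chromosome 11 at 69088553-69088889, lay wholly within its only homecage peak, of 1639 bp.

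Cplx1, the other complexin, had 1 learning peak of 255 bp, 802 bp from the nearest homecage peak. Stx1a, Snap25 and Vamp1, which encode plasma membrane and vesicle SNAREs, had no learning peak. Snap25 had 15 homecage peaks against a median of 10 (quartiles 7 to 12) for its length. Stx1a had 2, neither wider than 191 bp, against a median of 4. A homecage peak lay within 1 kb of an end in all 7 genes of this group (interval 59.0 to 100%), against 65.6% of genes of like length.

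NSF and its adaptors, which disassemble SNARE complexes, each had a learning peak (3 of 3, interval 29.2 to 100%, against 36.3% of genes of like length). None of their 5 peaks overlapped a homecage peak, which allows up to 52.2%, against 48.6% of learning peaks in all genes. Napa (alpha-SNAP, 19.8 kb, chromosome 7) had 3, where 27.5% of genes of its length had any. It also had the highest homecage density of the 40, 27.5 per 100 kb (6 peaks, median 3 for its length). Nsf had 1 learning peak of 183 bp, only 69 bp from a homecage peak, and Napb had 1 of 401 bp at its start. Rab3 GTPases tether vesicles to RIM. Rab3b and Rab3c had 1 narrow learning peak each, of 146 and 177 bp, and Rab3a had none. That is 2 of 3 genes (interval 9.43 to 99.2%), against 40.8% of genes of like length.

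Active zone genes had a learning peak in 9 of 12 (75%, interval 42.8 to 94.5%), but these are long genes, and 68.7% of genes of like length had one. The group held 24 of the 49 learning peaks and 546 of the 974 homecage peaks. Erc2 (ELKS2), the longest member at 856 kb, had 5 learning peaks, of 146 to 331 bp, and Erc1 had 4. Unc13c also had 4, of 173 to 359 bp, of which 1 touched a homecage peak. For genes of their lengths the learning medians were 3 for Erc2, 1 for Erc1 and 2 for Unc13c, with upper quartiles of 4, 2 and 4. Bsn (Bassoon) had 3 learning and 23 homecage peaks in 94.4 kb, against a homecage median of 13 (quartiles 10 to 16). Pclo (Piccolo), Rims1 and Rims2 had 2 learning peaks each, equal to the median for their lengths. Rimbp2 (RIM-binding protein 2) and Ppfia3 (liprin-alpha-3) had 1 each.

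The paralogs of this group differed from each other. Ppfia2 (liprin-alpha-2), at 464 kb, had 75 homecage peaks and no learning peak, where 84.5% of genes of its length had one. Unc13a (Munc13-1, the main primer of forebrain synapses) and Unc13b had 11 and 37 homecage peaks and no learning peak. Rims1 and Rims2 had 54 and 52 homecage peaks, below the lower quartiles of 58 and 56 for their lengths. Rims1 nevertheless had the widest homecage peak of the 40 genes, 2011 bp on chromosome 1 at 22667589-22669599.

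SV2 proteins are vesicle glycoproteins, and synapsins tie vesicles into the reserve pool. A learning peak was found in 3 of these 5 genes, Sv2b, Syn2 and Syn3, against 55.8% of genes of like length. Syn3, at 450 kb on chromosome 10, had 3 learning peaks and 80 homecage peaks, above the quartiles of 51 to 68.2 for its length. Its 969 bp learning peak at 86339102-86340070 lay inside Timp3, a protease inhibitor gene nested within Syn3, so it cannot be assigned to Syn3 alone. Sv2a, the widely expressed form, had no learning peak, and a homecage peak of 1427 bp ran across its start. Sv2c had 20 homecage peaks and no learning peak.

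Where strand was known, the members' learning peaks within 1 kb of a gene end all lay at starts. A learning peak lay within 1 kb of either end in 11 members (27.5%, interval 14.6 to 43.9%), against 15.6% of all genes and 19.3% of genes of like length, a difference of 8.20 points (-4.70 to 24.6). Strand was known for 32 members. Of these, 8 (25%, interval 11.5 to 43.4%) had a learning peak within 1 kb of the 5′ end, against 14.4% of 17492 genes. At the 3′ end the count was 0 of 32, which allows up to 10.9%, against 1.84% of genes. Over all genes the 5′ end was marked 7.84 times as often as the 3′ end in the learning list and 1.63 times as often in the homecage list.

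The 8 members with a start peak were Stxbp5, Cplx2, Rimbp2, Bsn, Pclo, Napb, Erc1 and Ppfia3, of which 5 belong to the active zone. Of their 9 peaks, 8 lay downstream of the outermost start and 1, in Erc1, upstream. In Bsn a peak of 249 bp lay 209 to 457 bp inside the gene, within a homecage peak at 147 to 775 bp. In Pclo a peak of 199 bp lay at 139 to 337 bp, overlapping a homecage peak at 227 to 481 bp. In these genes, as in Stxbp5 and Cplx2, both libraries were marked at the same place.

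The other 4 genes had learning peaks beside homecage peaks, or away from them. In Erc1 the learning peaks lay at 239 to 494 bp inside the gene and, outside it, at -634 to -466 bp, 63 and 245 bp from the homecage peak that crossed the start. In Ppfia3 a learning peak lay at 504 to 727 bp and a homecage peak at -998 to -456 bp, 960 bp apart. In Rimbp2 the learning peak, at 713 to 1130 bp, was 242 bp from the nearest homecage peak, and in Napb it was 2082 bp from one. Rimbp2 and Napb were the 2 members with a learning but no homecage peak within 1 kb of an end. A long noncoding RNA gene lay over or next to the start peaks of Cplx2, Stxbp5, Erc1 and Ppfia3, and signal from the neighbours cannot be told apart.

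**Figure D3:**
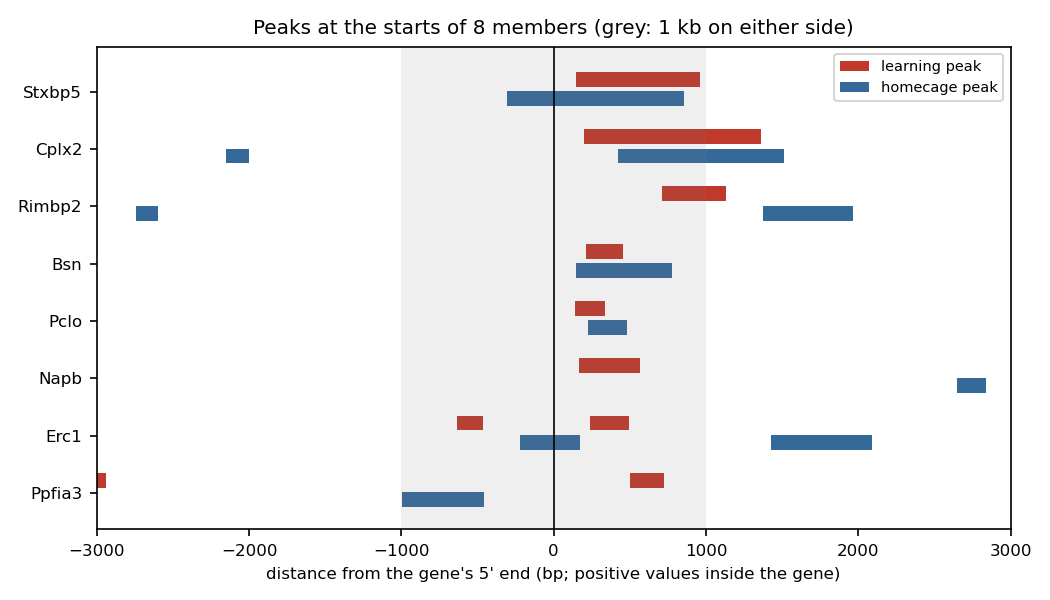
Learning (red) and homecage (blue) peaks of the 8 members with a learning peak within 1 kb of the 5′ end, drawn to scale against distance from that end in bp (positive inside the gene; grey, 1 kb on either side). Red and blue overlap in Stxbp5, Cplx2, Bsn and Pclo and do not in Rimbp2, Napb, Erc1 and Ppfia3.

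Among members without a known strand, Syt7, Vamp2 and Rims2 had a learning peak within 1 kb of the low-coordinate end. That of Rims2 (RIM2), 342 bp on chromosome 15, lay just outside the gene and 161 bp from a homecage peak of 413 bp inside it. With windows of 5 and 10 kb, 10 and 13 of the 32 members had a learning peak around the start, against 19.5% and 24.4% of genes. Around the far end it was then 2 and 6 members (6.25% and 18.8%), against 8.33% and 15.4% of genes, so the absence of far-end peaks held for the 1 kb window, where few genes had one.

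Homecage peaks were found within 1 kb of an end in 33 members (82.5%, interval 67.2 to 92.7%), against 60.9% of all genes and 65.4% of genes of like length. That difference of 17.1 points (1.81 to 27.2) was 8.80 points (-3.12 to 13.2) with windows of 3 kb and 5.52 points (-9.25 to 22.2) over peaks of at least 500 bp, so it depended on these settings. By strand, 21 of 32 members (65.6%, interval 46.8 to 81.4%) were marked at the 5′ end, against 48.3% of genes. At the 3′ end it was 11 (34.4%, 18.6 to 53.2%), against 29.7%. Both ends were marked in 7. The 7 members with no homecage peak at an end were Syt9, Rab3b, Rimbp2, Unc13b, Unc13c, Sv2c and Napb.

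Along transcription, both lists were most frequent 250 bp inside the start. There 18.8% of the 32 members and 6.45% of all genes carried a learning peak. From 4 to 5 kb away the share over all genes was 0.298%, a drop of 21.7 times. In the homecage list the corresponding shares were 40.6% of members and 20.2% of genes, and over all genes the start exceeded the distant level only 3.67 times. At the 3′ end neither list had a peak of its own over all genes, where the highest values were 0.457% and 6.13%.

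**Figure D4:**
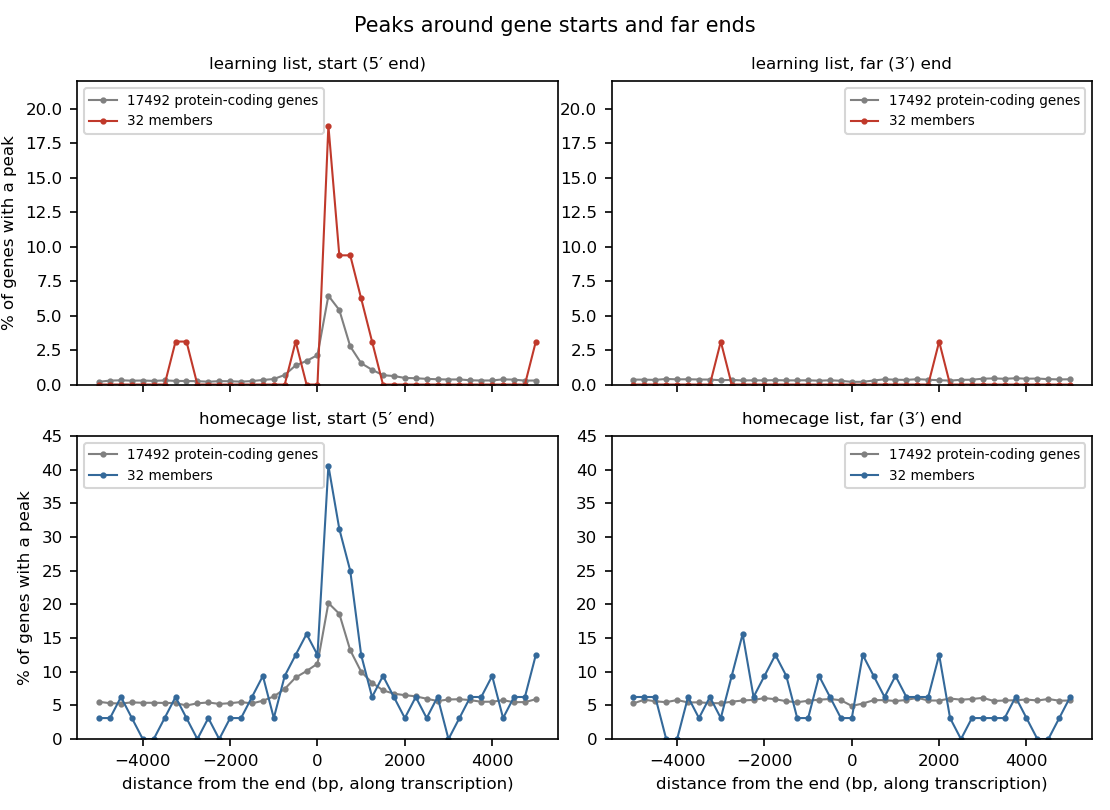
Percent of genes with a peak at each distance in bp from the start (left) and far end (right), along transcription, for the learning (top) and homecage (bottom) lists; grey, 17492 protein-coding genes, colour, 32 members, where 1 gene is 3.12%. Both lists are highest 250 bp inside the start, at 18.8% and 40.6% of members.

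Most learning peaks in the members lay more than 1 kb from a gene end, and most did not overlap a homecage peak. Yet 61.2% of them had a homecage peak within 1 kb. Of the 49, 12 (24.5%) lay within 1 kb of an end, against 36.7% of learning peaks in all genes, and 37 lay further inside. These shares are not matched for length, with a median of 88.2 kb in members and 17.2 kb in all genes. The all-gene share also counts the ends of any protein-coding gene, the members' share only their own ends. Counted by gene, 27.5% of members had a learning peak at an end, against 19.3% of genes of like length. Of the 49, 14 (28.6%, interval 16.6 to 43.3%) overlapped a homecage peak by at least 1 bp, against 48.6% of the 8632 learning peaks in all protein-coding genes. At gene ends the overlap was 6 of 12 (50%, 21.1 to 78.9%, against 68.9%), and further inside 8 of 37 (21.6%, 9.83 to 38.2%, against 36.9%). The interval over all 49 peaks excluded the all-gene share and the other 2 intervals included theirs. Peaks of 1 gene are not independent of each other, and these intervals treat them as if they were.

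Long genes shared fewer of their learning peaks with the homecage list over all genes, and 29 of the 49 lay in members over 200 kb. There 6 (20.7%, 7.99 to 39.7%) overlapped, against 34.5% in all genes that long. In members from 50 to 200 kb the overlap was 7 of 13 (53.8%), against 49.4%. In members up to 50 kb it was 1 of 7 (14.3%), against 57.7%. The definition of overlap moved the value: it was 10.2% when at least 50% of both peaks had to coincide and 61.2% when a homecage peak within 1 kb sufficed. The 35 peaks that did not overlap lay a median of 1146 bp from the nearest homecage peak (63 to 11795 bp), and 16 lay within 1 kb.

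All learning peaks missed the homecage peaks in 13 members: Syt1, Cplx1, Rab3b, Rab3c, Rims1, Rims2, Rimbp2, Syn2, Nsf, Napa, Napb, Erc1 and Ppfia3. The farthest was in Rims1, where a learning peak of 414 bp was 11795 bp from any homecage peak. Syn2 (synapsin II) had 1 learning peak, of 236 bp, 5576 bp away. In the other 10 members at least 1 learning peak overlapped, as in Sv2b (SV2B), where 181 bp lay within 735 bp.

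Learning peaks in the members had a median width of 265 bp (quartiles 183 to 359) against 312 bp (204 to 442) in all genes. Within length classes the medians were 299 bp in members and 300 bp in all genes over 200 kb, 303 and 316 bp from 50 to 200 kb, and 255 and 317 bp up to 50 kb, where the members held 7 peaks. Those under 200 bp made up 18 of 49 (36.7%), against 24.0%. At gene ends the median was 340 bp and further inside 255 bp. Only 4 reached 500 bp, those described in Cplx2, Syn3, Stxbp5 and Syt7, and 3 of these were at a gene end. Homecage peaks had a median of 352 bp in the members and 355 bp in all genes.

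Against the 200 genes nearest in length, 21 members had more homecage peaks than the median, 7 the same and 12 fewer. Above the upper quartile were 13 members and below the lower quartile 6. The 5 densest were Napa at 27.5, Syt7 and Syt12 at 24.1, Bsn at 23.9 and Vamp1 (synaptobrevin 1) at 22.9 homecage peaks per 100 kb. Vamp1 is short, at 6.73 kb, and its value rests on 2 peaks. Napa, Syt7 and Bsn also had learning peaks, while Syt12 and Vamp1 had none.

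Release gene promoters were rich in CpG. The 300-base windows held a median of 20 CpG dinucleotides in the members (6 to 49) and 13 in all genes, and their GC content had medians of 64.3% and 56.3%. In all genes, the share with a learning peak within 1 kb of the 5′ end rose from 4.21% of those with 0 to 9 CpG to 32.3% of those with 30 or more. The homecage share rose from 33.0% to 71.6%. The 8 members with a learning start peak had a median of 30 CpG (7 to 47) and the 24 without 19.5. Learning start peaks were present in 4 of the 9 members with 30 or more, and in 2 of the 5 with 0 to 9, Cplx2 with 9 and Rimbp2 with 7. Between these they were in 1 of the 10 with 10 to 19 (14.9% of all genes) and 1 of the 8 with 20 to 29 (21.8%). The members thus showed no steady rise across the classes. Classes of 5 to 10 members are too small to tell whether they follow the rise over all genes. In some members the window lies far from the 5′ end where the peak was scored, 39118 bp in Unc13c.

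**Figure D5:**
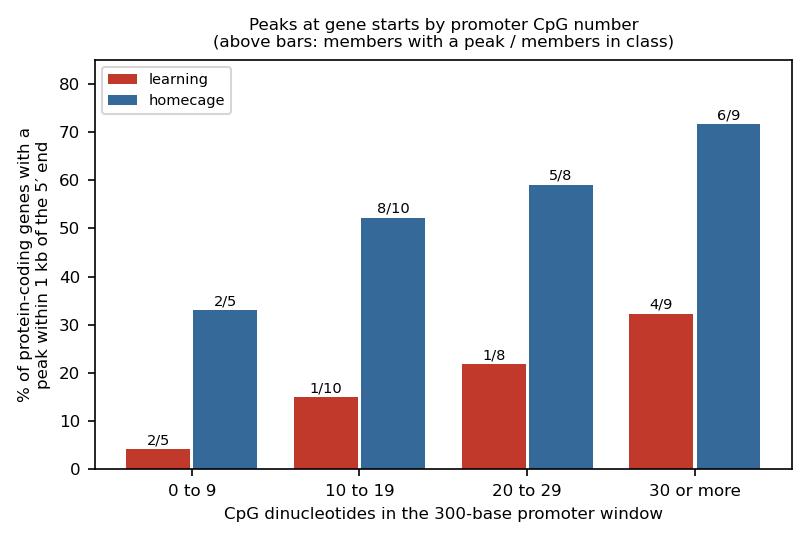
Percent of 17492 protein-coding genes with a learning (red) or homecage (blue) peak within 1 kb of the 5′ end (y), by number of CpG dinucleotides in the 300-base promoter window (x); above each bar, members with a peak over members in the class. Both shares rise across the classes, from 4.21% to 32.3% and from 33.0% to 71.6%.

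Motifs were searched as exact letters on both strands of these windows. The GC box GGGCGG was found in 26 of 32 members (81.2%), against 46.3% of all promoters. The E-box CANNTG was found in 24 (75%, against 68.8%), and the TATA box TATAAA in 2, Rab3b and Sv2b (6.25%, against 13.3%). The full cAMP response element TGACGTCA was found in 1, Napa (3.12%, against 2.33%). Of the 4 windows printed above, GGGCGG or its reverse complement is in those of Stxbp5, Unc13c and Erc1 and not in that of Cplx2.

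A further 56 genes of the release and recycling pathway were marked at the rate of genes of their length. A learning peak was present in 22 (39.3%), against 40.2% of genes of like length, and a homecage peak in 51 (91.1%), against 92.6%. A learning peak lay within 1 kb of an end in 13 (23.2%, against 19.0%). Their 46 learning peaks overlapped homecage peaks in 19 cases (41.3%). The widest were 941 bp in Rab3d, a Rab3 GTPase better known from secretory cells, 745 bp in Syt16, a synaptotagmin that lacks calcium binding, and 688 bp in Cadps, the priming factor CAPS1. The 5 without a homecage peak were Slc32a1, Doc2a, Syp, Cask and Syn1, the last 3 on chromosome X.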

How the data were processed

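Broad peak lists of pan-Kcr chromatin immunoprecipitation, 1 per condition, were used as deposited by the authors: chromosome, start, end and name, with no peak strength or read depth. The peak names in the deposited files mark them as broad peaks called at a p-value of 0.01. The submitters' processing notes name Trimmomatic, BWA, MACS2 and the build mm10. Whether input was subtracted or animals were pooled is not given in the sources used here, and depth is unknown.

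Peaks on assembled chromosomes were intersected (at least 1 bp) with RefSeq GRCm38.p6 genes and 1 kb at each end, with Python 3.11.15, pandas 2.3.3, numpy 2.4.6 and scipy 1.17.1. Strand and promoters came from the RefSeq promoter table. Each member was compared with the 200 genes nearest in length, other members left out. Intervals are Clopper-Pearson at 95%. The overlap counting was tested on simulated data. Exon and intron positions were not analysed here. Hippocampal tissue mixes cell types, so a mark in fewer cells and a weaker mark cannot be told apart.

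The members, the 56 other pathway genes, the marker lists of excitatory and inhibitory neurons, astrocytes, oligodendrocytes and microglia, and the motifs were chosen with earlier results of these data known. Named were the 5 members with the widest, the most or the densest peaks, all with a learning peak at an end or with learning peaks only off homecage peaks, any without a homecage peak (there was none), and the 3 pathway genes with the widest learning peak. Other members were described by role. Alternatives covered windows, overlap, width, merging, list size and length matching.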

Additional observations from a re-analysis of the deposited data

How the results depend on the processing

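No paired analysis was possible because there is 1 immunoprecipitated library for each condition, and none could be left out. Peaks carry no strength and depth is unknown, so a missing peak is not shown to be an absent mark. Over 12 alternative settings, 64 of 91 values stayed within the interval of the reported value, or within 1.5 times of it where it has none, and 27 did not. The excess of members with a learning peak over genes of like length, 8.26 points with an interval spanning 0, changed sign to -1.89 points (-9.09 to 11.8) over peaks of at least 500 bp. The homecage excess at gene ends, 17.1 points, was 8.80 with 3 kb windows, 5.52 over peaks of at least 500 bp and 3.06 (-6.23 to 17.9) with the widest homecage peaks, and all 3 intervals spanned 0.

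With windows of 3 kb, 95% of members had a homecage peak at an end. The excess of members with a homecage peak over genes of like length was 5.95 points (-2.86 to 5.95). It was 7.05 without windows, 6.16 by peak centres and 7.02 with 10 classes of length, but 4.69 with 3 kb windows, 2.88 over peaks of at least 500 bp and 0.600 with the widest homecage peaks. Overlap of learning with homecage peaks was 10.2% by 50% of both peaks and 61.2% within 1 kb. Over members up to 200 kb, learning coverage was 0.335%. Within 2 kb of the start lay 3.51% of homecage peaks, against 5.26% within 5 kb.

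Over peaks of at least 500 bp, learning peaks were in 10% of members, at an end in 7.50% and at the start in 6.25%, with 0.0571 per 100 kb, 0.0496% coverage and 75% overlap. Homecage peaks were then in 82.5%, at an end in 37.5% and at the start in 31.2%, with 3.43 per 100 kb, 2.50% coverage and a ratio of 60 to learning peaks.

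With the widest homecage peaks, as many as learning peaks, these were in 50% of members, at an end in 15% and at the start in 9.38%, with 0.585 per 100 kb, 0.687% coverage, a ratio of 0.837 and 8.16% overlap. All these values were lower than with the full homecage list. The cut changed list length and peak width together, so whether length alone lowered them was not tested.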

Other observations

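Marker genes of the cell types in hippocampal tissue, 6 per type, were counted in the same way as a description, since peaks measure neither expression nor cell number. A learning peak was found in 2 marker genes of excitatory neurons, 0 of inhibitory neurons, 3 of astrocytes, 3 of oligodendrocytes and 1 of microglia, where 30.2%, 24.3%, 27.7%, 28.9% and 24.1% of genes of like length had one. A homecage peak was found in 6, 4, 6, 5 and 5 of them in that order, against 86.2%, 83.3%, 86.4%, 90.4% and 85.9% of genes of like length. With 6 genes per list the intervals are wide, and each included the share in genes of like length. In the learning list they were 11.8 to 88.2% for astrocytes and for oligodendrocytes (50% each). For inhibitory neurons the interval was 0 to 45.9%. The part of the different cell types in the peaks of the release genes was not tested.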
